A study of Homo sapiens with 4 samples.

Results

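The clustered protocadherin genes are 53 neighbouring genes on chromosome 5, chosen here by symbol from 20033 protein-coding genes of the RefSeq annotation of GRCh38. The 53 members comprised 15 genes of the PCDHA cluster, 16 of the PCDHB cluster and 22 of the PCDHG cluster. Accessible DNA was mapped by ATAC-seq, an assay that cuts and tags open chromatin with a transposase. There were 2 LNCaP libraries and 2 from enzalutamide-resistant LNCaP cells. LNCaP is an established line of human prostate cancer cells whose labels say wild type and name no treatment. The resistant cells, called LNCaP-resistance in the labels, were derived from LNCaP and treated with enzalutamide, a drug used against prostate cancer. The study's methods describe adaptation of the parental line to charcoal-stripped serum before stepwise increases of the drug, whereas the labels give ordinary serum for both, and the labels name neither a subline nor a dose for these libraries. Both groups therefore come from 1 cell line, and nothing states that replicates were separate selections, so the spread between them may be technical.

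Each clustered protocadherin gene encodes a cell-surface cadherin-like protein. In the PCDHA and PCDHG clusters, a variable first exon with its own promoter is spliced to constant exons that all genes of the cluster share, whereas each PCDHB gene is a single-exon unit. Neurons switch on a few of these promoters at random, under the control of CTCF, cohesin and distant enhancers, and the resulting mix of surface proteins lets a neuron recognise its own branches. The C-type genes at the ends of the PCDHA and PCDHG clusters are instead used more evenly, and the clusters are often methylated in tumours.

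The deposited lists give 1 position, the summit, for each peak of accessibility, with a score that is a −log10 p- or q-value. Percentile here means how many percent of a library's own summits scored no higher, so 100 marks the strongest summit of a library, and a gene or region without a summit is given 0. The lists held between 45618 and 117245 summits, with fewer in both resistant libraries than in both LNCaP libraries, and no read counts, so sequencing depth is unknown. Depth and cell type therefore cannot be told apart where a summit is missing. Of the luminal prostate markers, the kallikrein gene KLK2 had a summit within 1 kb of its 5′ end in all 4 libraries, and KLK3, which encodes prostate-specific antigen, had none there in any. An exact permutation test of 2 against 2 libraries cannot give a two-sided p below 0.333, so values are given as descriptions.

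The protocadherin clusters held a similar number of open sites in both cell types, although the resistant libraries as a whole had fewer summits. The block examined, chr5:140736140-141562975 (GRCh38), runs from 50 kb before PCDHA1 to 50 kb after the end of the PCDHG cluster and spans 827 kb. It held 46 and 38 summits in LNCaP replicates 1 and 2, and 53 and 38 summits in resistant replicates 1 and 2. As a share of all summits of the library, these came to 0.0392% (95% exact binomial interval 0.0287 to 0.0523) and 0.0354% (0.0251 to 0.0486) in LNCaP cells. The resistant libraries had 0.0748% (0.0560 to 0.0978) and 0.0833% (0.0590 to 0.114), and both lay above both LNCaP values. The mean share was 0.0373% ± 0.00271 in LNCaP and 0.0790% ± 0.00602 in resistant cells (SD, n = 2). For chromosome 5 as a whole the order was the opposite, with 6.07% and 6.0% of summits in LNCaP and 5.13% and 5.08% in resistant libraries. Between 55.3% and 63.2% of a library's block summits lay within 1 kb of a member's 5′ end. Of 15848 protein-coding genes, a similar number had a summit that near in each library, 10374 and 10236 in LNCaP and 10851 and 10255 in resistant cells. A higher share in the shorter lists is thus not particular to the block, and its source was not tested. The intervals cover counting error only.

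**Figure D1:**
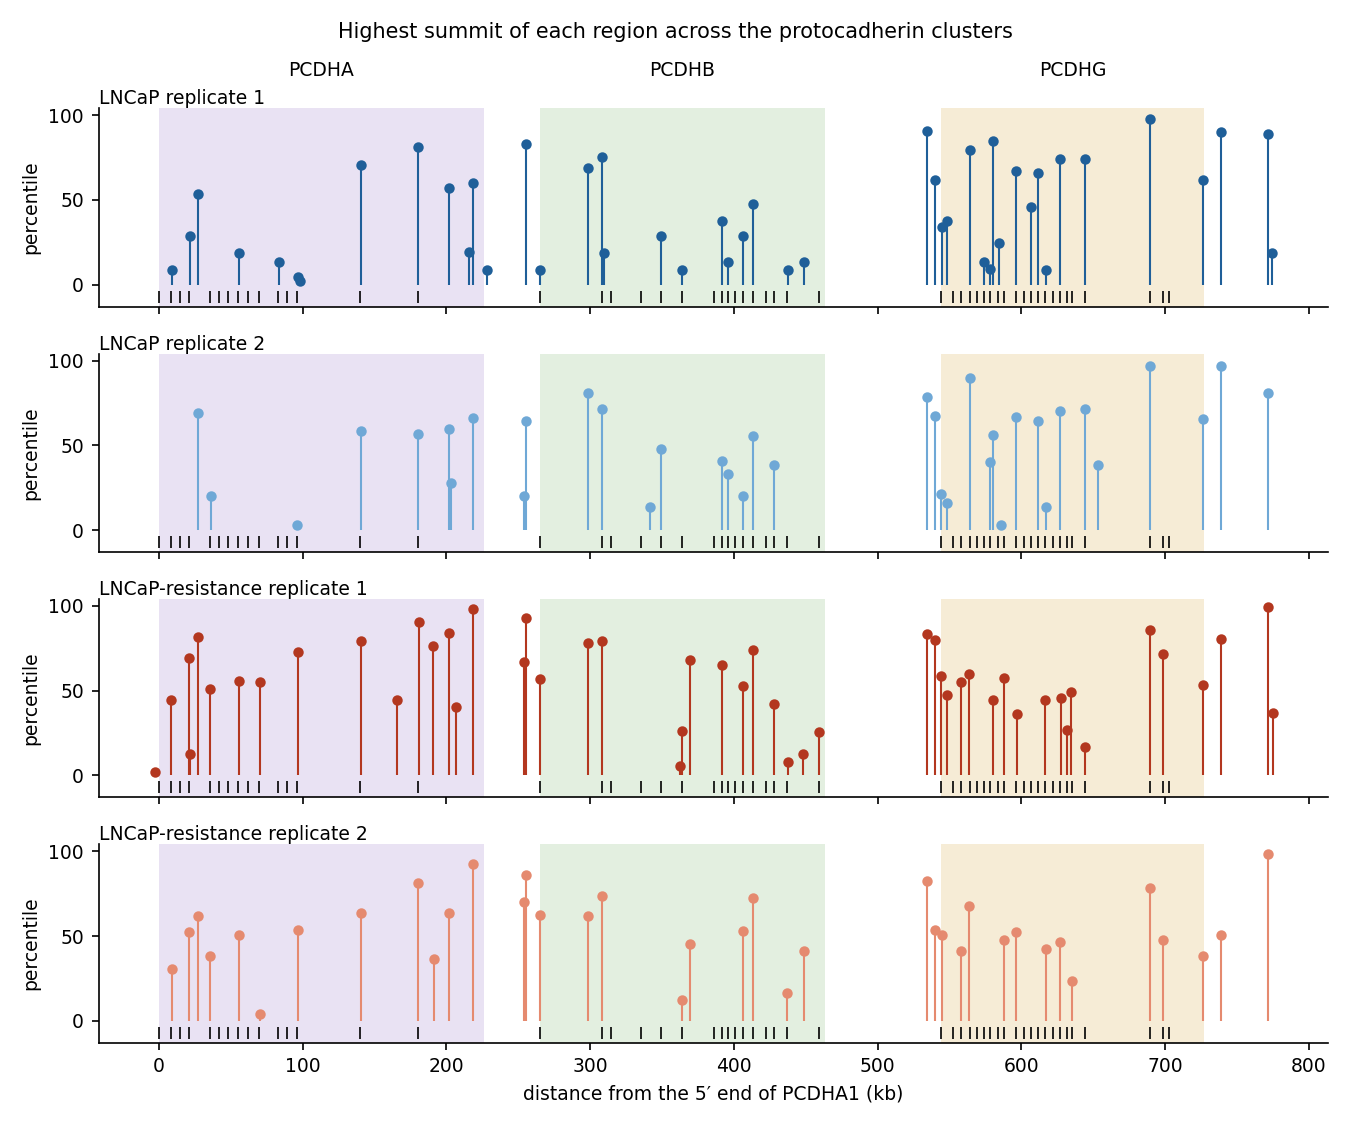
Percentile of the highest summit of each merged region (vertical axis) against distance from the 5′ end of PCDHA1 in kb (horizontal axis), 1 panel per library, with the clusters shaded and member 5′ ends as ticks. In the PCDHA cluster 10 of 19 regions are higher in both resistant libraries, with values up to 98.3 and 92.8, and 9 overlap. In the PCDHG cluster 2 regions are present in both LNCaP and neither resistant library, and 4 the other way round.

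To compare sites across libraries, windows of 250 bp to each side of a summit were merged wherever they overlapped, which gave 67 regions in the block of 150917 in the genome. All 4 libraries shared 22 of the 67 regions (32.8%), against 21.1% of all regions. LNCaP-specific regions, found in both LNCaP but in neither of the resistant libraries, numbered 4 (5.97%), against 27.5% in the genome and 31.1% in the rest of chromosome 5. Resistant-specific regions, defined the other way round, numbered 8 (11.9%), against 3.84% in the genome. The remaining 33 regions were present in part of a group. Leaving out LNCaP replicate 1, LNCaP replicate 2 or resistant replicate 1 gave 8, 12 and 8 LNCaP-specific regions (13.6%, 19.0% and 13.1%), against 43.7%, 46.9% and 38.0% of all regions. Leaving out LNCaP replicate 1 or resistant replicate 2 gave 14 and 15 resistant-specific regions (23.7% and 22.1%), against 6.33% and 12.0%. In each case the LNCaP-specific share of the block lay below, and the resistant-specific share above, that of the genome.

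Promoter content moved with these shares, and its part in them was not tested. A member's 5′ end lay within 1 kb of 39 of the 67 regions and that of TAF7, another gene of the block, within 1 kb of 1 more. In the genome 12886 regions lay that near to the 5′ end of a protein-coding gene with a known strand. Among the 40 block regions, 6 (15.0%) were resistant-specific, 4 (10.0%) LNCaP-specific and 13 (32.5%) shared. The corresponding genome shares near 5′ ends were 4.94%, 4.97% and 62.3%. Regions at 5′ ends in the block were therefore shared less often and specific to either cell type more often than those in general. Of the 27 regions away from 5′ ends none was LNCaP-specific, against 29.6% of such regions in the genome. Of the same 27, 9 (33.3%) were shared, against 17.2%, and 2 (7.41%) resistant-specific, against 3.74%.

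**Figure D2:**
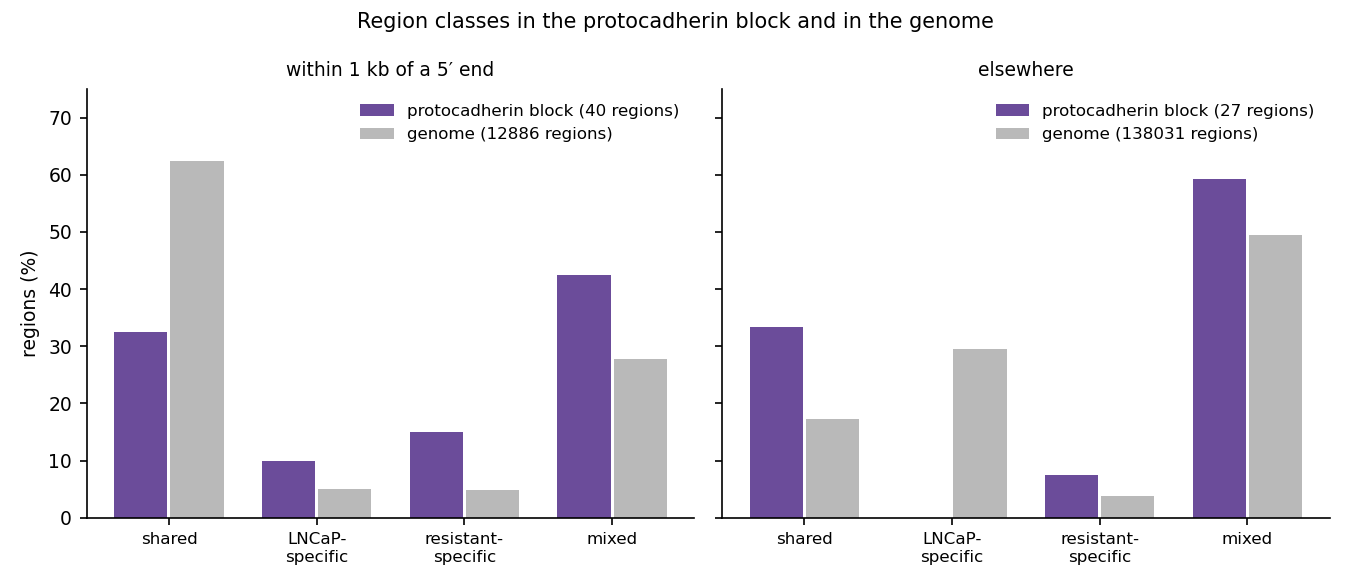
Percent of merged regions in each class (vertical axis) for the protocadherin block and the whole genome, split by a protein-coding 5′ end within 1 kb (left) or none (right). Near 5′ ends 32.5% of block regions were shared, against 62.3% in the genome, and away from them no block region was LNCaP-specific.

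Summit percentiles differed in both directions, and unevenly along the block. In 24 regions (35.8%) the percentile was higher in both resistant libraries than in both LNCaP libraries, against 8.97% of all regions. In 12 regions (17.9%) it was lower in both, against 42.5% of all regions. Among the 40 regions near 5′ ends, 17 (42.5%) were higher and 9 (22.5%) lower, against 24.9% and 20.5% of such regions in the genome. Of the 24 higher regions of the block 10 lay in the PCDHA cluster, which had none of the 12 lower among its 19. Without LNCaP replicate 1 the PCDHA cluster had 1 lower region, and without LNCaP replicate 2 it had 4. The PCDHB cluster had 5 higher and 2 lower of 17, and the PCDHG cluster 6 higher and 9 lower of 22. With equal numbers of summits per library, 29 block regions (61.7%) were higher and 4 (8.51%) lower, against 30.3% and 26.5% of all regions, and the PCDHG cluster then had 7 higher and 3 lower. Over the whole block, 38 regions (55.9%) were higher without resistant replicate 2 and 22 (34.9%) lower without LNCaP replicate 2, against 23.8% and 68.7% of all regions.

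Member promoters are shown for the genes whose highest summit lay inside the promoter in all 4 libraries and for the gene with the largest drop in percentile. Each sequence covers 250 bases before to 50 bases after the 5′ end, from RefSeq on GRCh38.p14, plus strand, 5′ to 3′. Capitals mark the letters CGCT on either strand, the end of the conserved element found in most clustered protocadherin promoters.
PCDHB10, chr5:141192103-141192402: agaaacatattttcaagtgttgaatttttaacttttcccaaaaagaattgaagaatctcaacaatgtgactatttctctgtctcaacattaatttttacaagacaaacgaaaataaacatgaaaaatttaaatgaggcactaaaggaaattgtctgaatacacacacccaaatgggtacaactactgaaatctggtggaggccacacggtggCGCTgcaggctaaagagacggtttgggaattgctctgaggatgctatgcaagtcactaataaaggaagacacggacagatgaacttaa
PCDHGB1, chr5:141349849-141350148: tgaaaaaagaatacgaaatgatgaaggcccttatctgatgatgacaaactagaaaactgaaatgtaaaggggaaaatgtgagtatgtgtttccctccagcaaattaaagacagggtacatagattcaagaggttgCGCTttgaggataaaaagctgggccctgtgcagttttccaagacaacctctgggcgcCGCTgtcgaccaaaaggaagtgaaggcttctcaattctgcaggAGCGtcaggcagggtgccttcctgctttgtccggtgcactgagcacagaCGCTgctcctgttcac
PCDHGC3, chr5:141475716-141476015: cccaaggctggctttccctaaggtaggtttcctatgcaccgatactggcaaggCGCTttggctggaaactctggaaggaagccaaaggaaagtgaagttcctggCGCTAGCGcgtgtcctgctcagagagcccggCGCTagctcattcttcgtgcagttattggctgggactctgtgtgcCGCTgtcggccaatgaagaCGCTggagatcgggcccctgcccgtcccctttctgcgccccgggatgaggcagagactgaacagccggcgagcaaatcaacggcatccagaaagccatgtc
PCDHGB5, chr5:141397697-141397996: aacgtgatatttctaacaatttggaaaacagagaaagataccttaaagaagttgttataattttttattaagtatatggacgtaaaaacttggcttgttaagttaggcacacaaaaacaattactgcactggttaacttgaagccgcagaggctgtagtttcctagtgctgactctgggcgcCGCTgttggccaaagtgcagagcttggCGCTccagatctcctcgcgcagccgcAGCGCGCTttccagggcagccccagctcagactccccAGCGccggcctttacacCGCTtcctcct
In PCDHB10 the single match begins at position -38 from the 5′ end, and the highest summits of the 4 libraries lay at -24, -86, -45 and -35. In PCDHGB5 the LNCaP summits at -48 and -41 lay among 6 matches.

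RefSeq promoters were found for 47 of the 53 members, 46 of them exactly at the annotated 5′ end. CGCT occurred on either strand in 46 of the 47 (97.9%), against 81.0% of 15842 protein-coding promoters. On the gene's own strand and in the last 100 bases before the 5′ end, it occurred in 44 of the 47 (93.6%), against 35.1% of all promoters. The CTCF core letters AGNNGGCGC, searched on both strands, occurred in 3 of the 47 (6.38%), against 13.4%. This core includes CGC and overlaps CGCT where a T follows. Member promoters were poorer in G and C than promoters in general, with a median of 39.7% against 62.7%, and had a median observed-to-expected CpG ratio of 0.593 against 0.761. The C-type promoters were richer, with medians of 64.5% G and C in PCDHA and 59.8% in PCDHG. Stretches of 50 bases shared between member promoters were found for PCDHB8 with PCDHB13 and for PCDHGB4 with PCDHGB5, so short reads in these stretches may fit both genes; the read length is not given in the sources used here.

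At the level of single genes, 37 of the 53 members had a summit within 1 kb of the 5′ end in at least 1 library. There were 28 and 20 such members in LNCaP replicates 1 and 2, and 29 and 24 in the resistant replicates. Both cell types had the summit, in all 4 libraries, at 12 members (22.6%), against 58.6% of 15848 protein-coding genes with a strand. It was present in both LNCaP and neither resistant library at 4 members (7.55%; 1.86% of all genes), and in both resistant and neither LNCaP library at 5 (9.43%; 3% of all genes). No library had a summit at 16 members (30.2%), against 27.1% of all genes, and 16 were present in part of a group. By percentile, 17 members (32.1%) were higher in both resistant libraries than in both LNCaP libraries, against 21% of all genes, and 9 (17.0%) were lower in both, against 15.1%. The share of higher members exceeded that of all genes under this ranking but not with equal numbers of summits per library, where 18 members (34.0%) were higher against 45.0% of all genes and 3 (5.66%) lower against 3.70%. That ranking moved the median of all genes with a strand from 0 to 4.41 points towards the resistant cells. It also gave 15 members (28.3%) present in resistant cells alone, against 9.55% of all genes, and 4 (7.55%) in all 4 libraries, against 48.5%. By presence, 11 members were found in resistant cells alone without LNCaP replicate 1, and 8 in LNCaP cells alone without LNCaP replicate 2. The median change over all 53 members was 0 under either ranking.

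**Figure D3:**
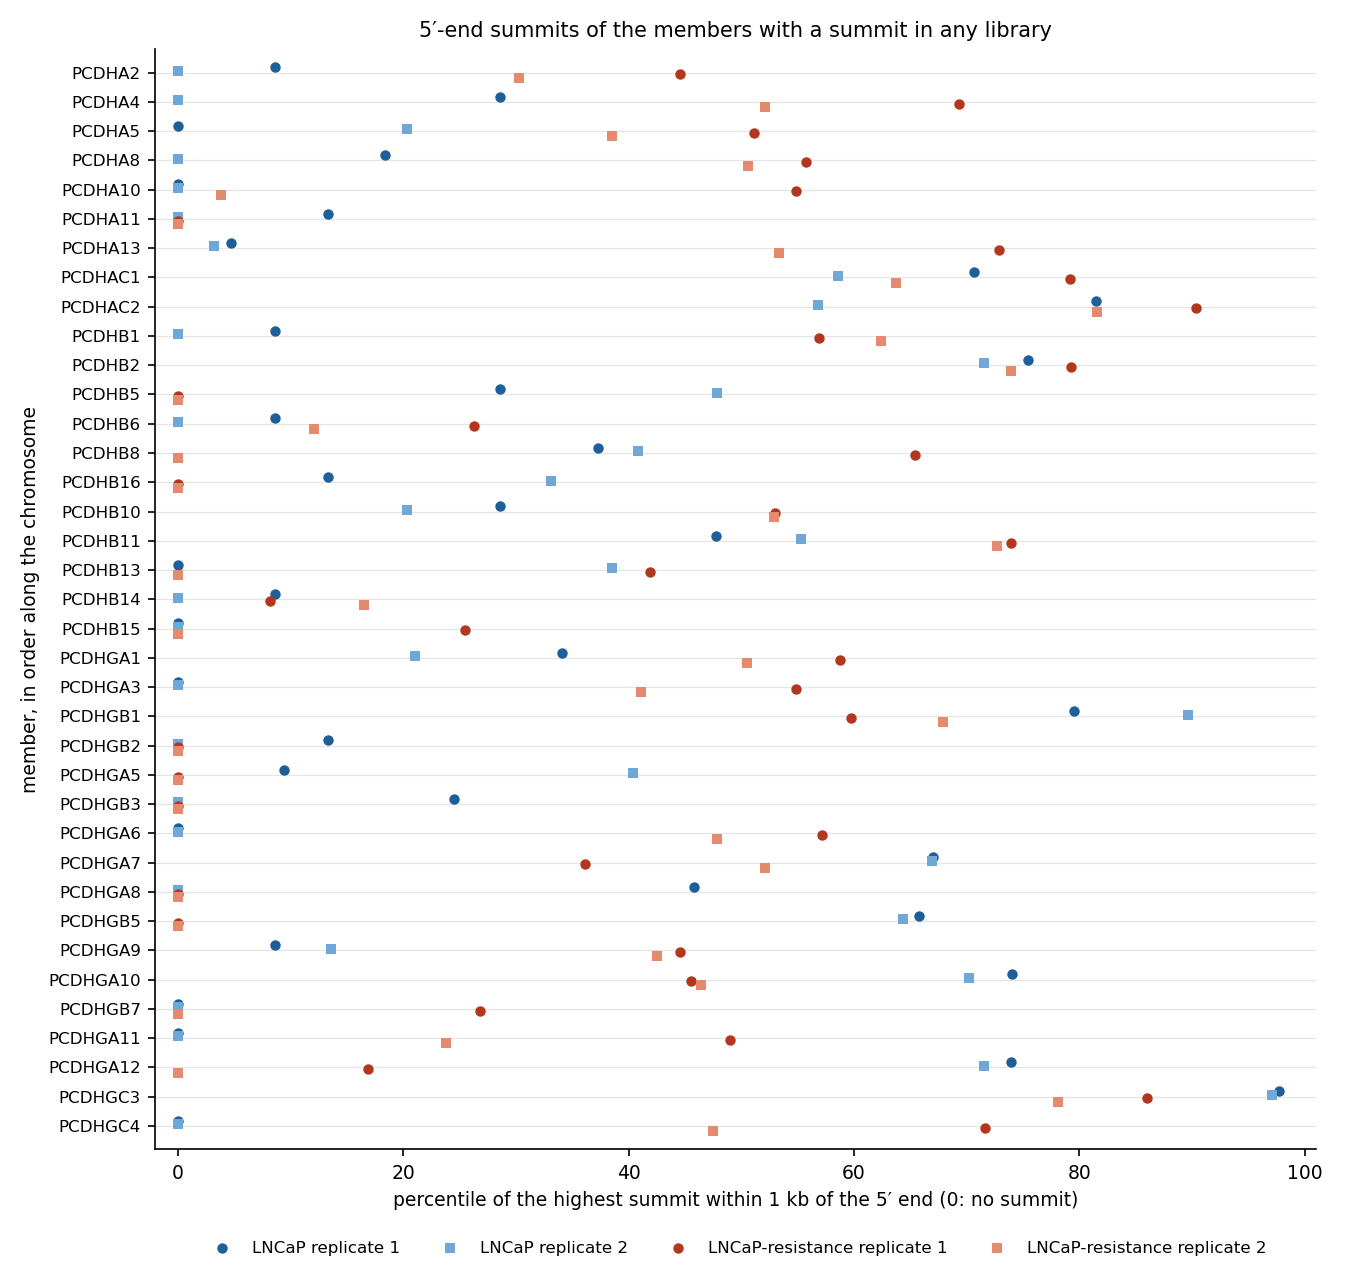
Percentile of the highest summit within 1 kb of the 5′ end (horizontal axis, 0 for no summit) in each of the 4 libraries for the 37 members with a summit in any library, in chromosomal order from top to bottom. Resistant libraries lie to the right for most PCDHA genes, and PCDHGB5 and PCDHGA12 reach 64.3 to 73.9 in LNCaP and 0 to 16.8 in resistant cells.

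The alternate PCDHA genes, which encode the PCDHA isoforms chosen at random in neurons, had higher-ranked summits in the resistant cells wherever the cell types separated. Of 13 genes, 6 were higher in both resistant libraries, none was lower in both, 1 overlapped and 6 had no summit. Among all genes 21% were higher and 15.1% lower. With equal numbers of summits per library the same 6 were higher, where 45.0% of all genes were higher and 3.70% lower. Under that ranking, many higher and few lower genes are thus not particular to this subfamily. The LNCaP replicates had summits at 5 and 2 of the 13, and both resistant replicates at 6. PCDHA13 had percentiles of 4.70 and 3.23 in LNCaP and 72.9 and 53.3 in resistant cells, a difference of 59.1 points with a pooled SD of 9.80. Weak summits in LNCaP thus stood against summits above the middle of the list in both resistant libraries. Both resistant values lay below the medians of all genes with such a summit, 86.6 and 82.6 in resistant replicates 1 and 2. PCDHA4 had 28.6 and 0 in LNCaP and 69.3 and 52.1 in resistant cells, a difference of 46.4 (pooled SD 16.7). The region at its 5′ end, chr5:140806757-140807274, was resistant-specific, since the LNCaP summit lay 540 bp inside the gene. PCDHA8 had 18.4 and 0 against 55.7 and 50.6, a difference of 44.0 (pooled SD 9.54). All its summits lay over 500 bp inside the gene, so within 500 bp of the 5′ end it had none in any library. For PCDHA4 and PCDHA8 1 LNCaP library had no summit at all and the resistant values did not overlap the others. PCDHA5 had 0 and 20.4 against 51.1 and 38.5, a difference of 34.6 (pooled SD 12.0). PCDHA2 had 8.58 and 0 against 44.6 and 30.3, a difference of 33.1 (pooled SD 8.33). PCDHA10 had no LNCaP summit and stood at 54.8 and 3.86 in resistant cells, so the second replicate only just passed the list's threshold and its difference of 29.3 had a pooled SD of 25.5. Without resistant replicate 1 that difference was 3.86 and without resistant replicate 2 it was 54.8. The exception among genes with a summit was PCDHA11, seen in LNCaP replicate 1 alone at 13.3.

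The C-type genes PCDHAC1 and PCDHAC2, at the downstream end of the PCDHA cluster, were open in all 4 libraries. PCDHAC1 had 70.6 and 58.6 in LNCaP and 79.1 and 63.7 in resistant cells, and the groups overlapped. PCDHAC2 had 81.5 and 56.8 in LNCaP and 90.4 and 81.5 in resistant cells. Here the LNCaP maximum (81.46) and the resistant minimum (81.52) were nearly the same, so the difference of 16.8 (pooled SD 13.1) separates the groups only barely and was 29.1 without LNCaP replicate 1 and 4.49 without LNCaP replicate 2. By LNCaP percentile under the main ranking, these C-type promoters contrasted with the alternate genes, none of which reached 30 in LNCaP. With equal numbers of summits per library both C-type genes were higher in both resistant libraries. PCDHAC1 then had 24.5 and 0 in LNCaP and 67.6 and 63.7 in resistant cells. PCDHAC2 then had 52.3 and 0 against 85.0 and 81.5.

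The PCDHB genes, which lack constant exons, went both ways. Of 16 genes, 4 were higher and 2 lower in both resistant libraries, 5 overlapped and 5 had no summit. These counts lay near the shares of all genes, 21% higher and 15.1% lower. PCDHB1, the first gene of the cluster, had 8.58 and 0 in LNCaP and 56.9 and 62.4 in resistant cells, a difference of 55.4 with a pooled SD of 5.11. PCDHB10 had 28.6 and 20.4 against 53.0 and 52.9, a difference of 28.5 (pooled SD 4.12). PCDHB11 had 47.8 and 55.3 against 74.0 and 72.6, a difference of 21.8 (pooled SD 3.81). In all 3 the resistant replicates lay close together and well above both LNCaP values. PCDHB6 had 8.58 and 0 against 26.2 and 12.1, a difference of 14.9 (pooled SD 8.26) that was 7.82 without resistant replicate 1. On the other side PCDHB5 had 28.6 and 47.8 in LNCaP and no summit in either resistant library, a difference of -38.2 (pooled SD 9.62). PCDHB16 had 13.3 and 33.1 and likewise none in resistant cells, a difference of -23.2 (pooled SD 9.89) that was -13.3 without LNCaP replicate 2. Neither of these genes had a summit in any library with a score of at least 10 or with equal numbers of summits.

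Some PCDHB promoters did not separate the cell types under the main ranking. PCDHB2 was the strongest of the cluster and nearly level, with 75.5 and 71.5 in LNCaP and 79.2 and 73.9 in resistant cells. With equal numbers of summits per library, a ranking that moved genes in general upwards in the resistant cells, PCDHB2 was not level. It then had 36.9 and 33.0 in LNCaP and 67.7 and 73.9 in resistant cells. PCDHB8 had 37.3 and 40.8 in LNCaP but 65.4 and 0 in the resistant replicates, which disagreed with each other. PCDHB14 had 8.58 and 0 against 8.20 and 16.5. PCDHB13 and PCDHB15 were each seen in at most 1 library of a cell type.

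The PCDHG cluster held large differences of both signs. In the PCDHGA subfamily 5 of 12 genes were higher and 4 lower in both resistant libraries, and in the PCDHGB subfamily none of 7 was higher and 2 were lower. The shares of all genes were 21% higher and 15.1% lower. With equal numbers of summits per library the same 5 PCDHGA genes were higher, where 45.0% of all genes were higher and 3.70% lower. PCDHGB5 had 65.7 and 64.3 in LNCaP and no summit in either resistant library, the largest drop of all members at -65.0 with a pooled SD of 0.703. Its promoter is the one that shares stretches with PCDHGB4, which had no summit in any library. PCDHGA12 had 73.9 and 71.5 against 16.8 and 0, a difference of -64.3 (pooled SD 8.51). The LNCaP replicates of both genes lay close together. PCDHGA10 had 74.0 and 70.2 against 45.6 and 46.4, a difference of -26.1 (pooled SD 1.96). PCDHGA7 had 67.0 and 66.9 against 36.1 and 52.1, a difference of -22.8 (pooled SD 7.99) that was -14.9 without resistant replicate 1. PCDHGB1 had 79.5 and 89.7 against 59.7 and 67.9, a difference of -20.8 (pooled SD 6.53). These 3 genes had a summit within 1 kb in all 4 libraries, at a lower rank in the resistant cells, although not always at the same place. The PCDHGB1 summits lay between -52 and -1 bp from the 5′ end, whereas that of PCDHGA7 in resistant replicate 1 lay at 220 bp. PCDHGA5 had 9.38 and 40.4 in LNCaP and none in resistant cells, a difference of -24.9 (pooled SD 15.5) that was -40.4 without LNCaP replicate 1 and -9.38 without LNCaP replicate 2. With equal numbers of summits per library, a ranking that moved genes in general upwards in the resistant cells, 3 of the 9 lower members of all clusters remained lower, PCDHGA12 at -33.0, PCDHGC3 at -15.4 and PCDHGB5 at -14.0. PCDHGA10 at -0.659, PCDHGB1 at -8.81 and PCDHGA7, turned to 7.41, then overlapped. PCDHGA5 had no summit in any library then or with a score of at least 10.

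The opposite pattern was seen at neighbours of these genes. PCDHGA6 had no LNCaP summit and 57.2 and 47.8 in resistant cells, a difference of 52.5 (pooled SD 4.69). PCDHGA3 also had none in LNCaP and 54.8 and 41.1 in resistant cells, a difference of 48.0 (pooled SD 6.85). PCDHGA11 had none against 49.0 and 23.8, a difference of 36.4 (pooled SD 12.6) that was 23.8 without resistant replicate 1. All 3 were thus detected in the resistant cells alone. PCDHGA9 had 8.58 and 13.6 against 44.6 and 42.5, a difference of 32.5 (pooled SD 2.69). PCDHGA1, the first gene of the cluster, had 34.1 and 21.0 against 58.7 and 50.5, a difference of 27.1 (pooled SD 7.72). PCDHGA8, PCDHGB2 and PCDHGB3 were seen in LNCaP replicate 1 alone and PCDHGB7 in resistant replicate 1 alone, so none of them separated the groups.

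The 3 C-type PCDHG genes differed from one another. PCDHGC3, which had the strongest summit of any member in both LNCaP libraries, had 97.7 and 97.1 in LNCaP and 86.0 and 78.1 in resistant cells, a difference of -15.3 (pooled SD 3.96). PCDHGC4 had no summit in either LNCaP library and 71.7 and 47.4 in the resistant libraries, a difference of 59.5 (pooled SD 12.1) that was close to that of PCDHA13 and was 47.4 without resistant replicate 1. PCDHGC5 had none in any library. Adjacent C-type promoters thus differed between the cell types in opposite directions.

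**Figure D4:**
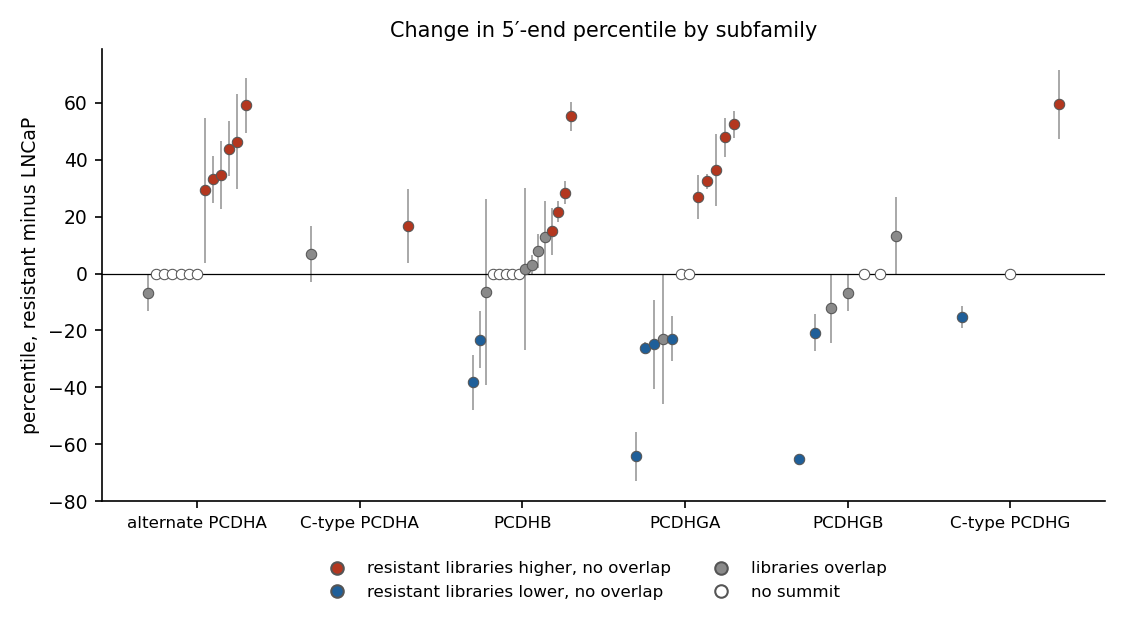
Difference in 5′-end percentile, mean of resistant minus mean of LNCaP libraries (vertical axis, points; bars, pooled SD of n = 2 and 2), for the 53 members by subfamily. Alternate PCDHA genes with a summit lie between -6.65 and 59.1, whereas PCDHGA genes spread from -64.3 to 52.5.

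Members without a summit in any library numbered 16, and they were spread over all clusters. They were PCDHA1, PCDHA3, PCDHA6, PCDHA7, PCDHA9, PCDHA12, PCDHB3, PCDHB4, PCDHB7, PCDHB9, PCDHB12, PCDHGA2, PCDHGA4, PCDHGB4, PCDHGB6 and PCDHGC5. The 14 of them with a RefSeq promoter had a median CpG ratio of 0.718, against 0.580 for the 33 members with a summit in some library, and CGCT occurred in 13 of the 14 and in all 33. With an unknown depth, a missing summit is not evidence that a promoter was closed.

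Where the highest summit lay differed between subfamilies, with positions counted from the 5′ end and positive inside the gene. Summits of PCDHB, PCDHGB and C-type PCDHG genes sat mostly at the start: 8 of 9, 7 of 7, 7 of 9 and 5 of 6 PCDHB summits lay within 100 bp of the 5′ end in the order LNCaP 1, LNCaP 2, resistant 1 and resistant 2. The C-type PCDHA summits lay inside the gene in every library, between 211 and 361 bp. In LNCaP replicate 1 all 5 alternate PCDHA summits lay between 540 and 721 bp inside the gene, whereas the resistant summits of PCDHA4 were at -44 and -61. PCDHA13 and PCDHA8 kept positions inside the gene in resistant cells, at 487 and 485 bp and at 570 and 581 bp. PCDHGA10 moved the other way, from -28 and -4 in LNCaP to 434 and 381 in resistant cells, so its lower percentile there came from another place in the gene. The resistant summits of PCDHGA3 and PCDHGA6 lay inside the gene as well, at 313 and 292 bp and at 293 and 245 bp. Over all members, 9 of 28 and 4 of 20 LNCaP summits, and 10 of 29 and 12 of 24 resistant summits, lay more than 200 bp inside the gene.

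**Figure D5:**
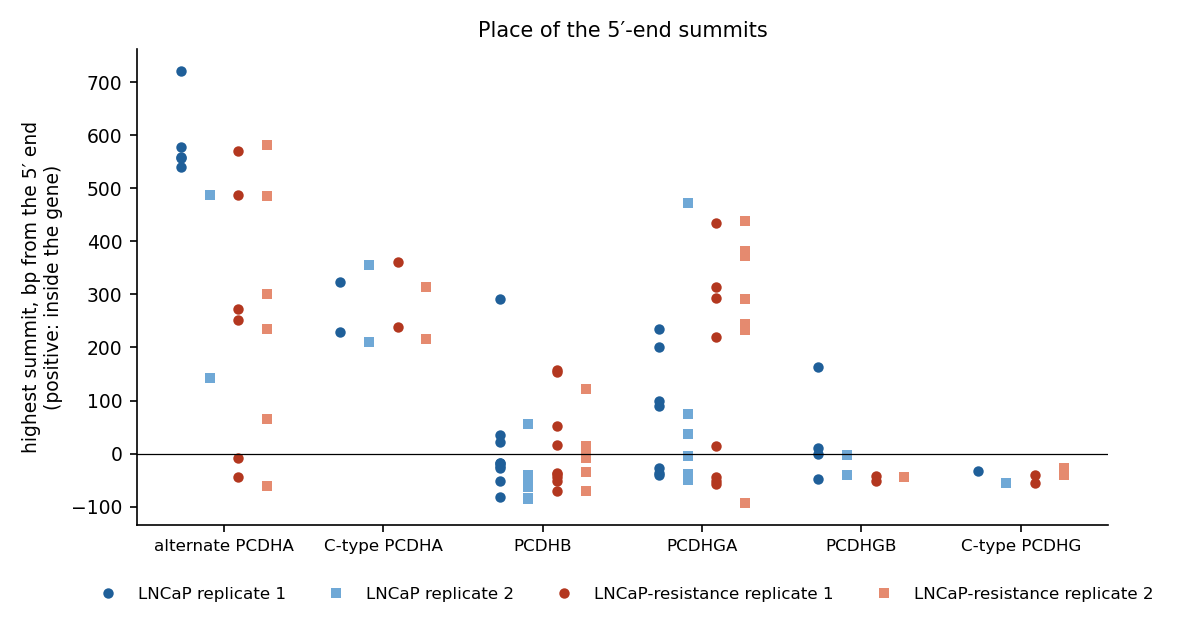
Position of each member's highest summit relative to the 5′ end in bp (vertical axis, positive inside the gene) by subfamily, in each of the 4 libraries. PCDHB summits cluster at the 5′ end, whereas alternate PCDHA summits of LNCaP replicate 1 lie at 540 to 721 bp.

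Of the 27 regions away from protein-coding 5′ ends, 7 (25.9%) were higher in both resistant libraries, against 7.48% of such regions in the genome. A further 3 (11.1%) were lower in both, against 44.5%, and the rest overlapped. The PCDHA cluster held 3 of the higher and none of the lower among its 9, and the PCDHG cluster none of the higher and 2 of the lower among its 5. The regions named here were in part chosen after their values were seen. The region chr5:141004061-141004611 (GRCh38), inside the annotated PCDHA constant region, had percentiles of 59.7 and 65.9 in LNCaP and 98.3 and 92.8 in resistant cells, among the strongest summits of those libraries. Between PCDHA and PCDHB, chr5:141040975-141041514 had 83.1 and 64.3 against 92.9 and 86.3. Its neighbour chr5:141039995-141040506 had 0 and 20.4 against 66.8 and 70.1, so 2 of the 3 regions of that interval were higher in both resistant libraries. A resistant-specific region at chr5:140976817-140977472 had 76.6 and 36.2 in resistant cells. Another, chr5:141155525-141156025 at an end of the pseudogene PCDHB17P, had 68.2 and 45.4. These were the 2 resistant-specific regions away from member 5′ ends.

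In and beyond the PCDHG cluster both orders occurred. The shared 3′ end of the PCDHG genes had a summit in all libraries, at 61.7 and 65.6 in LNCaP and 53.4 and 38.4 in resistant cells, whereas no library had one within 1 kb of the shared PCDHA 3′ end. Within the cluster, chr5:141366439-141366950 had 84.5 and 56.2 in LNCaP against 44.6 and 0. Downstream, in the body of DIAPH1, which encodes an actin-nucleating formin, chr5:141524701-141525267 had 90.1 and 96.6 against 80.7 and 50.6. A second DIAPH1 region at chr5:141557552-141558063 had the highest mean percentile of the shared regions and was higher in resistant cells, with 89.1 and 81.1 against 99.2 and 98.3. In both LNCaP libraries the PCDHGC3 region ranked above it. An end of the long noncoding RNA gene DIAPH1-AS1, chr5:141558311-141565260, lies within 1 kb of this second DIAPH1 region. The promoters of TAF7, a subunit of the general transcription factor TFIID, and of DIAPH1 overlapped between the groups. TAF7 had 90.4 and 78.2 in LNCaP and 83.3 and 82.5 in resistant cells.

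The libraries of a cell type agreed to different degrees in the block. The resistant pair had 74.5% of their regions in common, counted over regions present in either, against 56.9% in the genome. The LNCaP pair had 56.6% in common, against 65.4%. Pairs of 1 LNCaP and 1 resistant library shared 47.1% to 54.0% of block regions, against 29.1% to 36.6% in the genome. Lists of unequal length can have less in common, and lengths differed more in the genome (45618 to 117245 summits) than in the block (38 to 53). Block and genome values are therefore not directly comparable, and whether the cell types were more alike in the block was not tested.

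Related genes were counted by the same 5′-end rule. Of 11 non-clustered protocadherins, single genes that encode similar adhesion proteins without shared exons, 9 had a strand. Among these, 4 were higher in both resistant libraries, 1 lower, 3 overlapping and 1 without a summit. Of all genes 21% were higher and 15.1% lower, or 45.0% and 3.70% with equal numbers of summits per library. PCDH17 had no LNCaP summit and 85.9 and 71.3 in resistant cells. PCDH8 had 23.7 and 0 against 75.1 and 75.3. PCDH18 had 23.6 and 0 against 65.4 and 57.3. In these 3 genes on other chromosomes the promoter summit was weak or missing in LNCaP and above the middle of the list in both resistant libraries. PCDH7 had 42.2 and 51.9 against 78.6 and 71.6, and PCDH19 was lower, with 74.0 and 81.1 against 72.1 and 51.6. Of 12 known regulators of the clusters 11 had a strand and a summit in every library. Among these, 4 were higher in both resistant libraries and none lower, beside the same 21% and 15.1% of all genes. SETDB1, a histone H3 lysine methyltransferase, had 91.2 and 84.0 against 94.2 and 95.8. WAPL, which releases cohesin from chromatin, had 90.9 and 90.0 against 97.0 and 95.3. SMCHD1, a repressor of clustered genes, had 69.6 and 64.8 against 78.4 and 76.6, and the DNA methyltransferase gene DNMT3B had 63.5 and 52.3 against 74.2 and 67.1. These differences came to between 5.72 and 12.7 points, and the 7 others, CTCF and REST among them, overlapped.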

How the data were processed

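ATAC-seq summits of 2 LNCaP and 2 enzalutamide-resistant libraries were analysed. The authors deposited 1 summit list per library, with a score of the form −log10 of a p-value or q-value; which of these is not given in the sources used here. The submitters' processing notes name Bowtie2 2.2.5, SAMtools 1.6, MACS2 2.2.6, deepTools 3.5.2 and HOMER 4.11, with build hg38 and no roles. Peaks were called per library, the depth is unknown, and scores were used only by rank. Equal scores were common at low ranks, with 5 members at the percentile 8.58 in LNCaP replicate 1.

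Gene positions came from RefSeq (GRCh38.p14). Strand came from the RefSeq promoter table for 15848 genes, 47 members included, and for 6 members (PCDHA3, PCDHA13, PCDHB6, PCDHB11, PCDHGA12 and PCDHGC5) from their cluster neighbours. Genes without a strand were left out of 5′-end counts, and regions near them count as away from 5′ ends. Summits within 1 kb of a 5′ end, and regions from windows of 250 bp on either side, were compared by presence in both libraries and by percentile. All 53 members are accounted for, and those with a summit in both libraries of a cell type, at most 30, and the C-type genes are given with their values. The strongest regions of each class were to be named, and further regions away from promoters were chosen after their values were seen. The members and lists were chosen with earlier results of these data known. Replicate numbers pair the samples by the labels' batch tag, and replicate deviations of the cell types had a correlation of -0.0121 over 31833 shared regions.

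No test was run, since 2 libraries against 2 allow no p under 0.333. The computation was tested on simulated lists. Scripts ran in Python 3.11.15 (pandas 2.3.3, numpy 2.4.6, matplotlib 3.10.9, scipy 1.17.1). Alternatives were other windows, distances, flanks, summit lists cut to equal length, a minimum score of 10, presence in at least 1 library, ranks among shared regions, each library left out, and each replicate number alone. Counts by percentile order, either gene end and the split of regions by 5′ ends were added after seeing the data. Counts over the list of luminal markers are not reported here.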

Additional observations from a re-analysis of the deposited data

How the results depend on the processing

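Under the main rules a summit had to be in both libraries of a cell type, and results are given here in the order of the alternatives. With a score of at least 10, the resistant libraries exceeded LNCaP in their share of summits in the block by 0.0605 percentage points (0.0417 as reported). There were then 2 LNCaP-specific regions and 14 regions higher in resistant cells. The members numbered 2 in LNCaP alone, 8 in resistant cells alone, 7 in both and 9 higher in resistant cells (17.0%, against 19.3% of all genes). With equal numbers of summits the excess was 0.0493, with 2 LNCaP-specific, 18 resistant-specific (38.3%, against 14.9% in the genome) and 11 shared regions and 4 lower regions. The members then numbered 2 in LNCaP alone, 15 in resistant cells alone, 4 in both and 3 lower. Ranks among shared regions gave 20 members higher (37.7%, against 37.3% of all genes) and 7 lower (13.2%, against 7.62%). Presence in at least 1 library gave 16 LNCaP-specific (23.9%, against 52.0% in the genome), 14 resistant-specific and 37 shared regions, and 8 members in LNCaP alone and 22 in both. Without flanks the excess was 0.0350, and with flanks of 100 kb there were 7 LNCaP-specific and 21 lower regions. Counting either gene end gave 2 members in LNCaP alone, 1 in resistant cells alone, 29 in both and 23 lower, because the shared PCDHG 3′ end then counts for all 22 PCDHG genes. It turned the differences of PCDHGA1 to -9.04, PCDHGA3 to -15.7, PCDHGA6 to -11.1, PCDHGA9 to -15.7, PCDHGA11 to -17.7 and PCDHGC4 to -4.09. Equal numbers of summits turned PCDHGA7 to 7.41.

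With the replicate block, only differences seen in both replicate numbers count. The 4 LNCaP-specific, 8 resistant-specific and 22 shared regions, the presence counts, the mean differences and the median then equal the main values by construction. For these the replicate block is no check. No other result that answers a comparison moved beyond the limits used. In replicate number 1 alone of the replicate block, the excess was 0.0356, with 12 LNCaP-specific (18.8%, against 48.9% in the genome), 18 resistant-specific (28.1%, against 15.6%) and 34 shared regions, 39 higher and 25 lower. The members numbered 8 in LNCaP alone, 9 in resistant cells alone, 20 in both and 14 lower. In number 2 alone, the excess was 0.0479, with 13 LNCaP-specific (25.5%, against 60.8%) and 14 resistant-specific regions (27.5%, against 9.24%), 22 lower regions, and 7 and 11 members in LNCaP or resistant cells alone.

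Leaving out 1 library gave an excess of 0.0375 to 0.0460, 4 to 12 LNCaP-specific (5.88% to 19.0%), 8 to 15 resistant-specific and 22 to 28 shared regions, and 25 to 38 higher and 12 to 22 lower regions. The members then numbered 4 to 8 in LNCaP alone, 5 to 11 in resistant cells alone, 12 to 18 in both, 17 to 23 higher and 9 to 13 lower. Of the 26 members that separated the cell types, 7 moved by over 1.5 times in this way. None could change sign, since members were counted as separating only where the libraries of the cell types did not overlap. Windows of 100 and 500 bp and distances of 500 bp and 3 kb left these counts within 1.5 times of those reported. At 500 bp the difference of PCDHA8 became 0. Depth is unknown, so summits near the threshold of the lists limit all counts of absence.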
